A study of Mus musculus with 6 samples.

Results

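The antiviral interferon-stimulated genes described here are 37 genes named by symbol, all of which were found among the 14912 genes measured. They cover the viral RNA and DNA sensors, the Oas family, effectors that act on viral replication, the Isg15 system, the Parp9 and Dtx3l ADP-ribosylation genes and further genes induced by interferon. Libraries of transcript 3' ends were sequenced from bone marrow of wild-type (WT) C57BL/6J mice grown in culture. The midkine group (3 samples) was given human recombinant midkine, a secreted cytokine that binds heparin, at 10 ng/ml over the last 2 days. The control group (3 samples) was grown without it. All 6 cultures grew with FLT3 ligand, the growth factor of dendritic cell development, at 50 ng/ml, and fresh medium with it was given on day 7. The labels call the cells bone marrow derived dendritic cells; whether the 3 samples of a group came from different mice or cultures is not stated, so the p-values describe sample-to-sample spread that could be technical. The question was how the antiviral genes stood in cultures with midkine against cultures without it.

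Type I interferon binds the receptor encoded by Ifnar1 and Ifnar2, and the kinases Jak1 and Tyk2 then activate transcription factors, among them Stat2, which acts with Irf9. These factors bind a short element, the interferon-stimulated response element, before the genes described here and raise their transcription. Many of these genes are also kept at a low level in unstimulated cells by tonic interferon signalling, and plasmacytoid dendritic cells, which arise in FLT3 ligand cultures, are known as strong producers of type I interferon.

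Because the members share this known mode of induction, the 250 bases before their RefSeq starts (build GRCm38.p6) were searched for the core letters GAAANNGAAA, or TTTCNNTTTC for the other strand. A promoter entry was found for 26 of the 37 members by symbol. The 11 others were Dhx58, Zbp1, Oas2, Mx1, Mx2, Usp18, Parp9, Parp14, Rtp4, Ifi27l2a and Tor3a. Of the 26 members, 9 held the letters (34.6%), against 3.46% of the 27025 genes with an entry, and 6 held them at least at 2 positions (23.1%, against 0.211%). The 6 stretches below are shown because they belong to the called members with the largest fall in their role group that held a match (Ifit3, Isg15 and Oas3), to Ifit1 beside Ifit3, to Ddx60, which held a match and was not called, and to Ifi44, the 1 member called higher with midkine. Matches are in capitals, each stretch reads 5' to 3' on the strand of its gene, and neighbouring matches can overlap.
Ifit3 (chr19:34583279-34583528, plus strand): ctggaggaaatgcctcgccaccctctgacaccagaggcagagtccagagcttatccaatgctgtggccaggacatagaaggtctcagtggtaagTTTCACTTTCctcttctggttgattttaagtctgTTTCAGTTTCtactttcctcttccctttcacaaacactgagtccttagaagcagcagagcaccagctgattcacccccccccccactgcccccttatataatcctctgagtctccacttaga
Ifit1 (chr19:34640639-34640888, plus strand): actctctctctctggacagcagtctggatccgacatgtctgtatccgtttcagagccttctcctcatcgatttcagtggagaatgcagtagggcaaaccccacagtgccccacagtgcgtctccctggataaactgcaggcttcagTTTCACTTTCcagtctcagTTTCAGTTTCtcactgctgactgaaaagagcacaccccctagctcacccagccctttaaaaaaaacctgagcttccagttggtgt
Isg15 (chr4:156200819-156201068, minus strand): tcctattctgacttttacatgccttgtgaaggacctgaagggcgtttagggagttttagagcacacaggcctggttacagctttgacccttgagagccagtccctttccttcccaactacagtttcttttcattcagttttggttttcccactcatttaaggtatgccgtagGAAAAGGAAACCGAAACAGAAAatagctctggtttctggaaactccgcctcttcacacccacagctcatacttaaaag
Oas3 (chr5:120777660-120777909, minus strand): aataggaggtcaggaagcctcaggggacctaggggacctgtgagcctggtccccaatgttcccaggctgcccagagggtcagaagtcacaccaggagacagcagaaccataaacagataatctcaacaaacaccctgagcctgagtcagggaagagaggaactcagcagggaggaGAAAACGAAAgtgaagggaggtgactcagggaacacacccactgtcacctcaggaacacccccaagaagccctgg
Ddx60 (chr8:61927837-61928086, plus strand): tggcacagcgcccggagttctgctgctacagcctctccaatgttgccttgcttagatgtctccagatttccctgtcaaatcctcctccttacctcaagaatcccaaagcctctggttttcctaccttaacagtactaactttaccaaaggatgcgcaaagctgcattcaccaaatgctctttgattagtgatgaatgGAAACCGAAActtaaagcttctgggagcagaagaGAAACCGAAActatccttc
Ifi44 (chr3:151749911-151750160, minus strand): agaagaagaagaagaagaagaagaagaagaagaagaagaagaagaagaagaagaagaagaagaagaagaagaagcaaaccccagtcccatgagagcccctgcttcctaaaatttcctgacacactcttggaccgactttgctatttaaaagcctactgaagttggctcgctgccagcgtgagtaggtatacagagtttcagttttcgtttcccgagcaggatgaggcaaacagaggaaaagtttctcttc
In Ifit3 the matches began 156 and 122 bases before the start, and in Ifit1 104 and 85 bases before it. Both genes held the same letters, TTTCACTTTC and TTTCAGTTTC, in the same order. Isg15 held 3 overlapping matches that began 78, 72 and 66 bases before its start, Oas3 held 1 at 75 bases and Ddx60 held GAAACCGAAA at 53 and at 19 bases. The other members with a match were Bst2, Rsad2, Oas1a and Trim30a. The letters were not found in these 250 bases of Ifi44, which says nothing of other forms of the element. Ifit1 and Ddx60 were chosen after their values were seen. Of the 9 members with a match 7 were called lower with midkine, 1 was not called and 1 was not tested. Of the 17 with an entry and no match 13 were called lower, 1 higher and 3 not called. Over all genes tested 21.8% were called lower and 20.9% higher, and a link between match and call was not tested.

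The libraries held 5685055 to 6453768 reads with midkine and 5089338 to 5532055 in control, and values below are normalised read counts, that is reads divided by 1 size factor per library. Of 11844 genes with a mean of at least 10, limma called 2578 lower and 2481 higher with midkine (Benjamini-Hochberg adjusted p under 0.05). Dendritic markers were present in every library. H2-Ab1, a class II gene, stood at 17274 to 19026 with midkine and 14753 to 15452 in control, and Flt3 at 572 to 596 with midkine and 599 to 669 in control. Of 6 markers of dendritic cells at large, Itgax (0.83 on the log2 scale) and H2-Ab1 (0.27) were called higher, Zbtb46 (-0.47) lower and 3 were not called. With libraries scaled to total counts, 1 of the 6 was called higher and 2 lower (10.8% and 40.7% of all genes). Mitochondrial ribosomal RNA took 18.1% to 20.9% of the values with midkine and 9.33% to 9.86% in control. Among the controls, replicate 1 stood apart for the antiviral genes, and results that rest on it are given with and without it.

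Nearly all of the antiviral genes were lower in midkine cultures. Of the 36 members tested, 31 fell, 1 rose (Ifi44) and 4 were not called (Ddx60, Oasl1, Isg20 and Herc6), where 21.8% of all genes tested were called lower and 20.9% higher. Oas1a was below the minimum level and was not tested. The median log2 fold change of the 36 members was -1.03, against -0.0086 over all genes tested, and 18 of the 36 (50.0%) were at least 2-fold lower, against 3.86% of all genes tested. All 3 midkine values lay below all 3 control values for 32 of the 36, against 26.2% of all genes tested. Summed over the 37 members, the libraries held 4779 to 5160 normalised reads with midkine and 9531 to 12587 in control. Without control replicate 1, 26 members were called lower and 1 higher, where 19.2% of all genes were called lower. In these bulk samples, fewer cells of a type and less RNA per cell cannot be told apart.

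**Figure D1:**
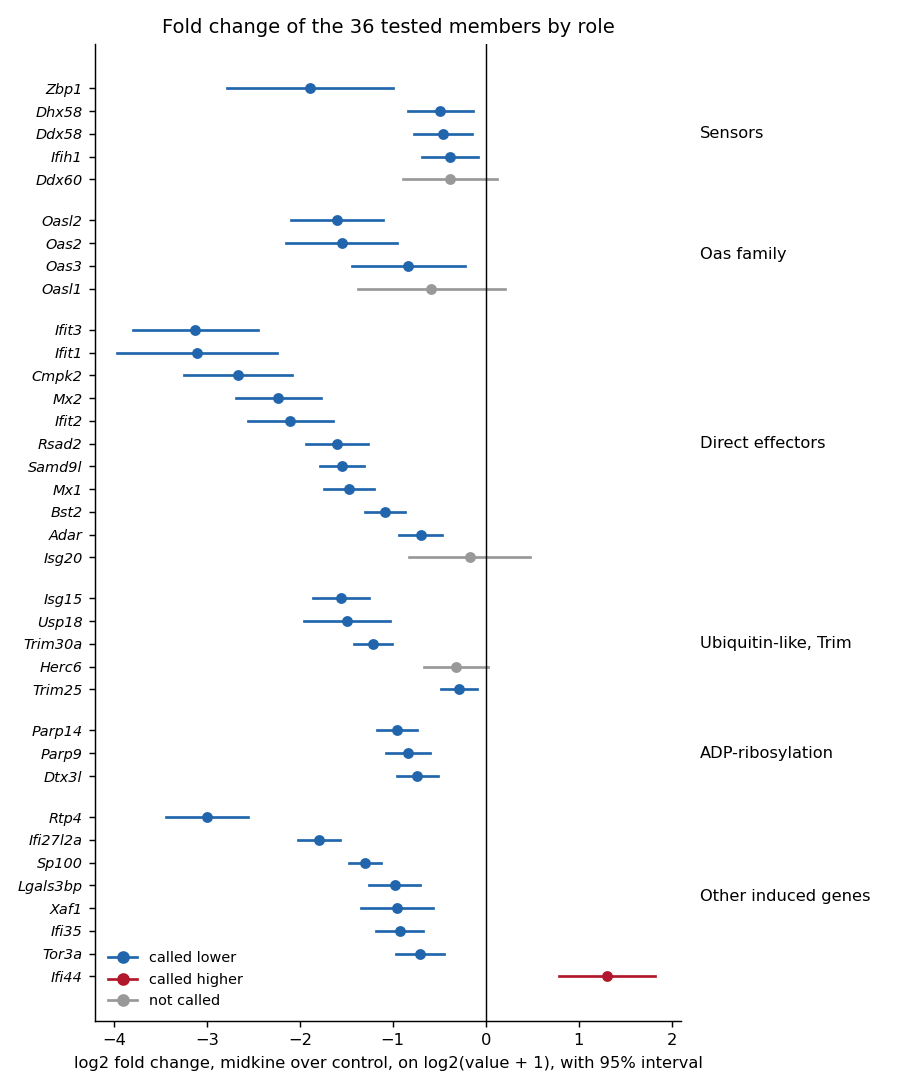
Log2 fold change (midkine over control, on log2(value + 1)) of the 36 tested members by role, with 95% intervals from limma. Blue points were called lower, grey points not called, and the red point, Ifi44 at 1.31, called higher. Ifit3, Ifit1 and Rtp4 lie farthest left at -3.12, -3.11 and -3.00.

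**Figure D2:**
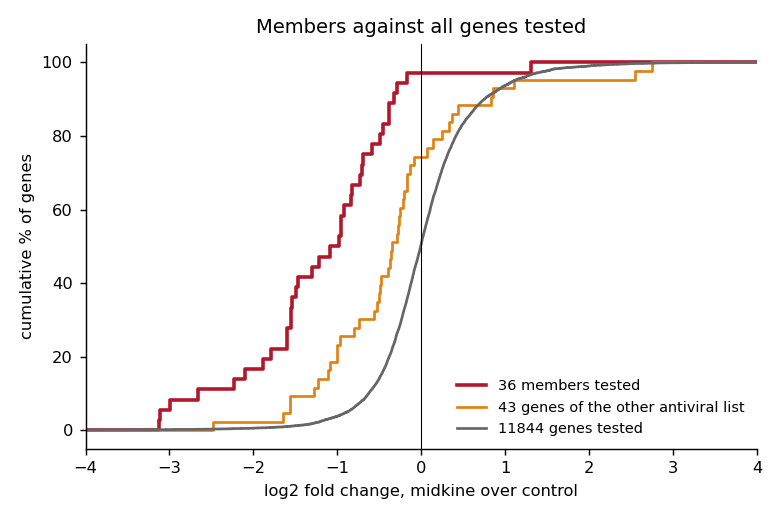
Cumulative percentage of genes (vertical axis) by log2 fold change, midkine over control (horizontal axis), for the 36 members, 43 tested genes of a second list of antiviral genes and all 11844 genes tested. The curve of the members crosses 50% at -1.03 and that of all genes at -0.0086.

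The sensors detect viral nucleic acid. Ddx58 encodes RIG-I and Ifih1 encodes MDA5, both helicases that bind viral RNA, Dhx58 encodes their regulator LGP2, Zbp1 binds Z-form nucleic acid and triggers cell death, and Ddx60 is a helicase linked to RIG-I signalling. Of these 5 genes 4 fell, at a median log2 fold change of -0.46, where 21.8% of all genes tested were called lower. Zbp1 had 11.3, 11.9 and 2.02 normalised reads with midkine, against 40.6, 21.5 and 25.0 in control (log2 fold change -1.89, SE 0.43, limma adjusted p = 0.00094). Every midkine value was below every control value, as for 26.2% of all genes tested. The midkine value of replicate 3 rested on few reads: the 3 midkine libraries held 25 reads in all and the control libraries 90. Ddx58 stood at 69.9, 84.3 and 73.6 with midkine and at 120.0, 106 and 89.6 in control (log2 fold change -0.46, SE 0.15, limma adjusted p = 0.017). Ifih1 stood at 116, 106 and 98.9 with midkine and at 178, 121 and 127 in control (log2 fold change -0.39, SE 0.15, limma adjusted p = 0.034). Both fell by less than 2-fold, and for both the highest control value was that of replicate 1. Dhx58 fell by 0.49 on the log2 scale (limma adjusted p = 0.022). Zbp1 was at -1.20, and still called, without midkine replicate 3. Without control replicate 1, Zbp1 remained called at -1.63 (limma adjusted p = 0.013), whereas Dhx58 (-0.44, adjusted p = 0.071), Ddx58 (-0.36, adjusted p = 0.088) and Ifih1 (-0.22, adjusted p = 0.25) were not called. Dhx58 and Ifih1 were also not called without midkine replicate 2 or without midkine replicate 3, Ddx58 without midkine replicate 1, and Dhx58 without control replicate 3. Ddx60 had 24.8, 38.5 and 26.2 with midkine and 48.2, 27.1 and 43.8 in control, so its groups overlapped. Its log2 fold change was -0.39 with a 95% interval of -0.89 to 0.12 (limma adjusted p = 0.22), and it was -0.23 without control replicate 1 and -0.63 without control replicate 2, not called in either.

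The Oas family makes the second messenger that activates the RNA-cutting enzyme RNase L, and the Oas-like genes Oasl1 and Oasl2 carry ubiquitin-like domains. Of 4 tested, 3 fell, where 21.8% of all genes tested were called lower. Oasl2 had 16.9, 18.3 and 17.2 normalised reads with midkine and 76.5, 48.5 and 44.8 in control (3.04-fold lower, log2 SE 0.24, limma adjusted p = 5.9e-06). Oas2 had 9.01, 9.16 and 12.1 with midkine and 31.2, 34.5 and 28.1 in control (2.92-fold lower, SE 0.29, limma adjusted p = 0.00011). In both genes every midkine value was below every control value, as for 26.2% of all genes tested. Oas3, next to Oas2 on chromosome 5, had 10.1, 17.4 and 19.2 with midkine and 28.3, 21.5 and 34.4 in control (log2 fold change -0.83, limma adjusted p = 0.026), and -0.81 without control replicate 1, which was not called (adjusted p = 0.065). It was also not called without midkine replicate 1 or without control replicate 3. Oasl1, which in mice is known to restrain translation of Irf7, was not called and its groups overlapped (log2 fold change -0.59, 95% interval -1.38 to 0.20, limma adjusted p = 0.23), with a log2 fold change of -0.29 without control replicate 1. Oas1a held 3 reads over the midkine libraries and 14 over the control libraries, and its relatives Oas1b, Oas1c and Oas1g were also below the minimum, so reads among these similar copies are uncertain.

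Of the 11 effectors 10 fell, where 21.8% of all genes tested were called lower. Their median log2 fold change was -1.60, the lowest of the role groups. The Ifit proteins bind viral RNA lacking the marks of host messenger RNA, and their genes lie together on chromosome 19 of GRCm38, with Ifit2 from 34550694 to 34576419, Ifit3 from 34583531 to 34588731 and Ifit1 from 34640871 to 34650009. Ifit3 had 5.63, 2.75 and 7.06 normalised reads with midkine, against 57.6, 49.4 and 43.8 in control (8.71-fold lower, log2 SE 0.33, limma adjusted p = 2.1e-08). Ifit1 had 1.13, 2.75 and 4.04 with midkine, against 22.7, 32.7 and 31.3 in control (8.62-fold lower, SE 0.42, limma adjusted p = 1.2e-06). Ifit2 had 29.3, 18.3 and 26.2 with midkine, against 157, 82.1 and 94.8 in control (4.29-fold lower, SE 0.22, limma adjusted p = 2.8e-08). The groups were far apart in all 3 genes, but Ifit1 rested on 8 midkine reads and 89 control reads in all, and log2(value + 1) understates folds at such levels. Ifit3b, a close copy of Ifit3, was below the minimum with 4 midkine and 33 control reads, and reads of the pair could have been split between them.

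Rsad2 encodes viperin, which makes a chain-terminating nucleotide from CTP, and its neighbour Cmpk2, a nucleotide kinase, supplies such precursors. The genes lie 12752 bases apart on chromosome 12. Cmpk2 had 6.76, 8.25 and 8.07 normalised reads with midkine and 75.6, 48.5 and 42.7 in control (6.34-fold lower, SE 0.28, limma adjusted p = 2.7e-08). Rsad2 had 41.7, 55.9 and 42.4 with midkine and 167, 132 and 129 in control (3.03-fold lower, SE 0.16, limma adjusted p = 1.3e-08). In both, the 3 midkine libraries lay close together and below every control library, and 26.2% of all genes tested had all midkine values below all control values. Mx1 and Mx2 belong to a family of dynamin-like GTPase genes whose products can trap viral components. In C57BL/6 mice the Mx1 gene carries a deletion and gives no functional protein, and RNA values do not show whether Mx2 gives one. Mx2 had 18.0, 17.4 and 14.1 with midkine and 105, 70.9 and 70.9 in control (4.69-fold lower, SE 0.22, limma adjusted p = 8.6e-09), and Mx1, 72401 bases away on chromosome 16, had 99.2, 106 and 78.7 with midkine and 291, 229.5 and 269 in control (2.77-fold lower, limma adjusted p = 1.5e-09).

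Samd9l restrains translation of poxvirus and endogenous proteins, Bst2 encodes tetherin, which holds budding virions at the cell surface, and Adar edits adenosine in double-stranded RNA. Samd9l had 352, 243 and 307 normalised reads with midkine and 1014, 791 and 814 in control (2.92-fold lower, SE 0.11, limma adjusted p = 4.1e-11). Bst2 had 364, 319.8 and 402 with midkine and 888, 671 and 750.4 in control (2.12-fold lower, SE 0.10, limma adjusted p = 4.0e-09). Bst2 is also a surface marker of mouse plasmacytoid dendritic cells. Adar had 135, 141 and 146 with midkine and 237, 208 and 245 in control (1.63-fold lower, limma adjusted p = 1.9e-05). Isg20, an RNA exonuclease gene, had 19.2, 17.4 and 14.1 with midkine and 29.3, 18.7 and 12.5 in control, and was not called (log2 fold change -0.17, 95% interval -0.83 to 0.48, limma adjusted p = 0.69). Its groups overlapped, and without control replicate 1 its log2 fold change was 0.13 (adjusted p = 0.81).

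**Figure D3:**
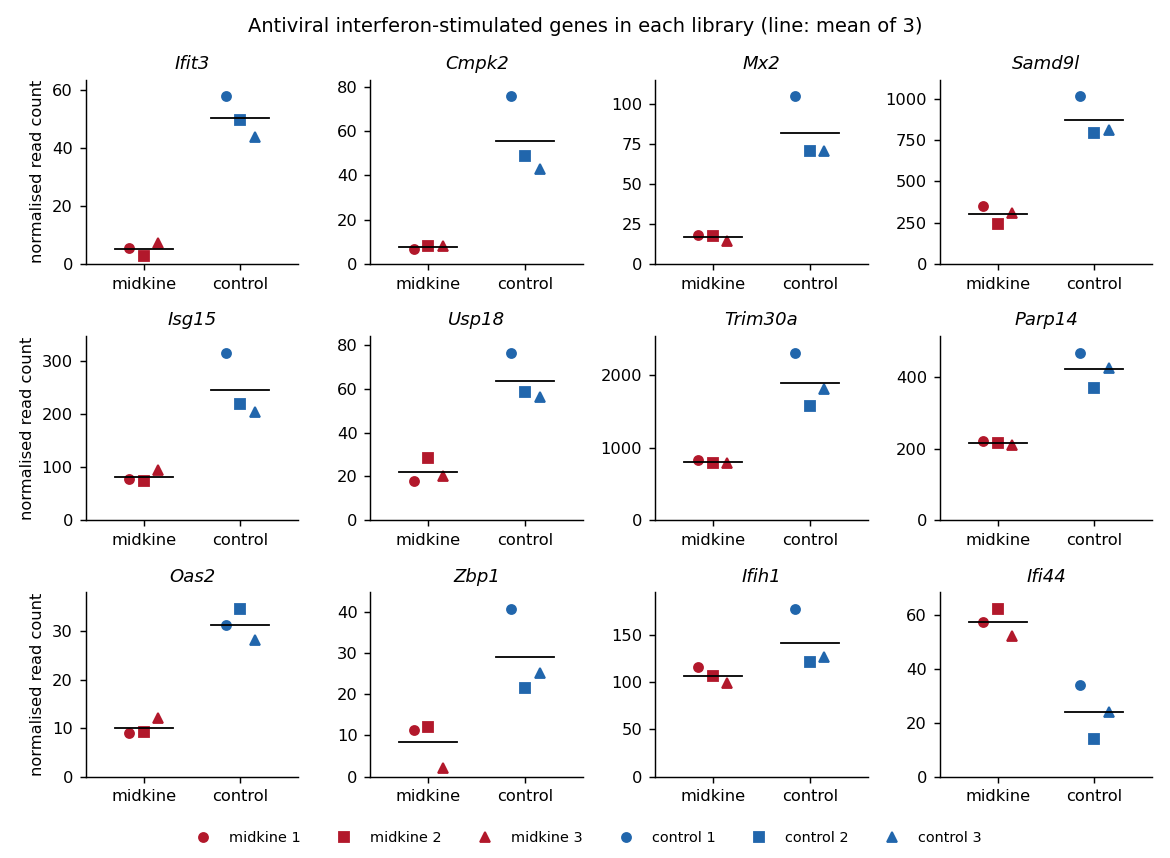
Normalised read count (vertical axis, from 0) of 12 members in the 3 midkine and 3 control libraries; each symbol is 1 library and the line is the mean. Every midkine value of Ifit3 (2.75 to 7.06) lies below every control value (43.8 to 57.6), and Ifi44 runs the other way.

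Isg15 is a ubiquitin-like protein that is attached to other proteins, in mice by the ligase Herc6, and removed by the protease Usp18, which also blocks the interferon receptor. Trim25 is a ubiquitin ligase that activates RIG-I, and Trim30a, a mouse ligase, restrains inflammatory signalling. Isg15 had 77.7, 74.2 and 93.8 normalised reads with midkine and 315, 218 and 204 in control (2.94-fold lower, log2 SE 0.15, limma adjusted p = 4.0e-09). Usp18 had 18.0, 28.4 and 20.2 with midkine and 76.5, 58.8 and 56.3 in control (2.82-fold lower, SE 0.22, limma adjusted p = 5.8e-06). The modifier and its protease had similar fold changes, and the difference between them was not tested. Herc6 had 54.1, 59.6 and 62.6 with midkine and 85.0, 70.0 and 66.7 in control, which did not overlap but were not called (log2 fold change -0.32, 95% interval -0.66 to 0.022, limma adjusted p = 0.13). Of the other enzymes of this conjugation system, Ube2l6, the E2, fell (log2 fold change -1.08), and Uba7, the E1, stood at 158 ± 10.8 with midkine and 169 ± 7.14 in control (SD, n = 3 each; limma adjusted p = 0.56). Trim30a had 832, 795 and 795 with midkine and 2309, 1572 and 1808 in control (2.32-fold lower, limma adjusted p = 2.7e-10). Reads could have been shared with its relatives, which was not checked. Trim25 was 1.22-fold lower (limma adjusted p = 0.014) and was not called without control replicate 1 (adjusted p = 0.075).

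Parp9, Dtx3l and Parp14 act in ADP-ribosylation: Parp9 and the ubiquitin ligase Dtx3l form a complex, and Parp14 is a mono-ADP-ribosyltransferase. All 3 lie within chromosome 16 from 35832874 to 35972605 of GRCm38, and all 3 fell (21.8% of all genes tested were called lower). Parp14 had 223, 216 and 209.8 normalised reads with midkine and 468, 371 and 427 in control (log2 fold change -0.96, SE 0.10, limma adjusted p = 3.1e-08). Parp9 (-0.83, limma adjusted p = 1.4e-06) and Dtx3l (-0.73, limma adjusted p = 3.9e-06) had nearby values. Exons of Parp9 and Dtx3l overlap on opposite strands, and the strand setting of the counting is not given in the sources used here. Parp10, Parp11 and Parp12 are further members of the family that interferon induces, and of these Parp12 fell (-0.75) whereas Parp10 (-0.35) and Parp11 (-0.26) were not called.

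Of the 8 other induced genes 7 fell, where 21.8% of all genes tested were called lower. Rtp4, a receptor transport protein with a role in restraining interferon responses in mice, had 13.5, 22.9 and 17.2 normalised reads with midkine and 196, 136 and 118 in control (log2 fold change -3.00, SE 0.21, limma adjusted p = 2.1e-11). Its groups were separated by a wide gap. Ifi27l2a, a small membrane protein gene, stood at 113 ± 5.17 with midkine and 395 ± 40.6 in control (SD, n = 3 each; 3.46-fold lower), and Sp100, a nuclear body protein gene, at 864 ± 22.3 and 2139 ± 280 (2.46-fold lower). Lgals3bp, a secreted glycoprotein gene (-0.98), Xaf1, a proapoptotic factor gene (-0.95), Ifi35 (-0.92) and Tor3a, which encodes a torsin ATPase (-0.70), also fell on the log2 scale.

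Ifi44 ran against every other called member. It had 57.5, 62.3 and 52.5 normalised reads with midkine and 34.0, 14.0 and 24.0 in control (2.47-fold higher, log2 SE 0.25, limma adjusted p = 0.00016). Every midkine value was above every control value, as for 25.1% of all genes tested. Without control replicate 1 the log2 fold change was 1.59, against 1.31 with it. The role of Ifi44 is less well defined than that of several other members. Ifi44 lies on the minus strand of chromosome 3 from 151730922 to 151749960, and its exons overlapped no other annotated gene.

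The control libraries differed among themselves in these genes. Control replicate 1 held the highest of the 3 control values for 32 of the 36 tested members, where it did so for 37.0% of all genes tested. The exceptions were Oas2, Oas3, Ifit1 and Adar. The same library was the highest control for 32 of 43 tested genes of a second antiviral list and 12 of 17 interferon signalling genes. The median of the members in control replicate 1 was 0.22 above the control mean on the log2 scale, whereas control replicates 2 and 3 were at -0.15 and -0.11. The midkine libraries stood at -1.12, -1.15 and -0.97 and had no such library: the highest midkine value fell to replicate 1 in 14 members, to replicate 2 in 11 and to replicate 3 in 11. Among 16 tested markers of plasmacytoid dendritic cells, control replicate 1 was the highest control for 4. Their median in that library was -0.0025 from the control mean. The medians of B lineage, macrophage, stromal and neutrophil markers in that library were -0.81, -0.34, -0.17 and -0.0022. Those of markers of dendritic cells at large, of type 1 and of type 2 were 0.016, 0.055 and 0.20. The part of cell content in the differences among the controls was not tested. For Ifi44, too, control replicate 1 was the highest control library, though the gene was higher with midkine.

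**Figure D4:**
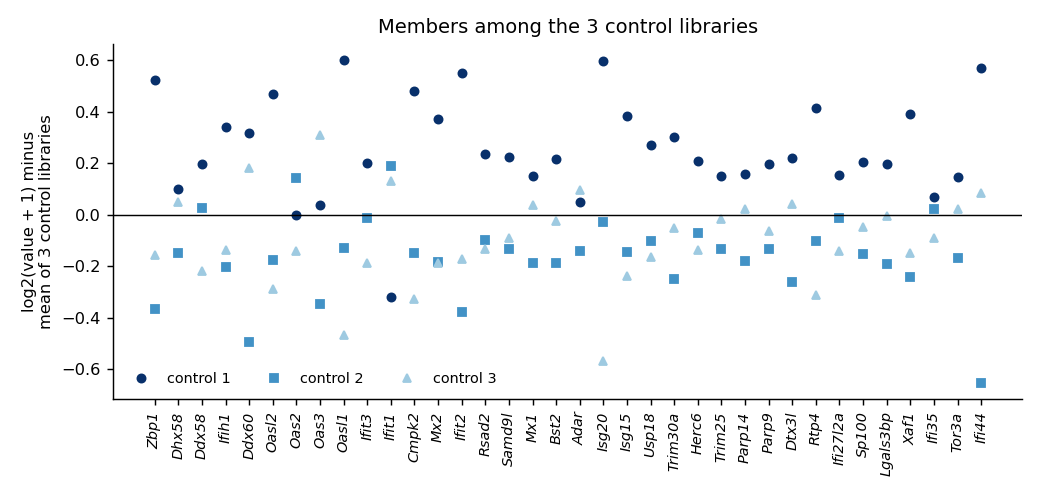
Deviation of each tested member in the 3 control libraries from their mean, on log2(value + 1), in the order of roles used above. Control replicate 1 (dark circles) is the highest of the 3 for 32 of 36 genes; the exceptions are Oas2, Oas3, Ifit1 and Adar.

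Of 17 genes of interferon signalling 6 fell, 3 rose and 8 were not called, and their median log2 fold change was 0.054. Over all genes tested 21.8% were called lower, 20.9% higher and 42.7% in either direction, so the count that rose is near that of all genes. Without control replicate 1, 5 of the 17 fell and 3 rose (19.2% and 19.3% of all genes). Of the transcription factors, Irf9 fell to 579, 549.8 and 536 normalised reads with midkine, against 1009.7, 924 and 939 in control (log2 fold change -0.79, limma adjusted p = 1.8e-08). Stat2 fell to 223, 246 and 249.2 with midkine, against 465, 318 and 349 in control (log2 fold change -0.64, limma adjusted p = 8.5e-05). In both genes every midkine value was below every control value, as for 26.2% of all genes tested. Irf7, which amplifies interferon production, was at 19.2, 17.4 and 21.2 with midkine and 229.5, 147 and 155 in control (8.66-fold lower, limma adjusted p = 8.6e-13). Both receptor chains had every midkine value above every control value, which held for 25.1% of all genes tested: Ifnar1 stood at 373, 379 and 388 with midkine and 332, 355 and 329 in control (limma adjusted p = 0.15, with a 95% interval of -0.020 to 0.36 on the log2 scale), and Ifnar2 rose by 0.28 (limma adjusted p = 0.0037). With libraries scaled to total counts, which moves the median of all genes to -0.26, Ifnar1 was at -0.090 and Ifnar2 at 0.018, and neither was called. Irf8, a dendritic cell regulator, fell by 0.73. Socs3, an inhibitor of cytokine signalling, rose 2.64-fold and Ifngr2, a chain of the receptor for interferon gamma, 1.47-fold.

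Of 15 tested genes listed as partners of the sensor pathways 9 fell and 3 rose, at a median log2 fold change of -0.32. Over all genes tested 21.8% were called lower and 20.9% higher. Without control replicate 1, 8 of the listed genes fell and 3 rose (19.2% and 19.3% of all genes). The 3 that rose with all libraries were Ikbke, Ticam1 (0.61 on the log2 scale) and Traf3 (0.52). Scaled to total counts, 10 of the listed genes fell and 1, Ikbke, rose (40.7% and 10.8% of all genes). Tlr7, an endosomal RNA receptor, had 29.3, 37.6 and 42.4 normalised reads with midkine and 133, 104 and 113 in control (log2 fold change -1.66), and Tlr3, a receptor for double-stranded RNA, fell by 1.30. Tmem173, which encodes STING, fell by 0.67, Unc93b1, which carries endosomal receptors, by 0.44 and the adaptor gene Myd88 by 0.42. Cgas, the DNA sensor upstream of STING, fell by 1.21 and was looked up after the values were seen, because the list held its older symbol. Mavs, the adaptor of RIG-I and MDA5, stood at 34.0 ± 8.47 with midkine and 26.8 ± 5.00 in control (SD, n = 3 each; limma adjusted p = 0.33), and Ikbke, a kinase that activates interferon regulatory factors, rose 2.94-fold. Interferon genes themselves were not analysed here.

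A second list of antiviral and interferon-induced genes outside the 37 split in direction. Of 43 tested, 20 fell, 7 rose and 16 were not called, at a median log2 fold change of -0.35, where 21.8% of all genes tested were called lower and 20.9% higher. Without control replicate 1, 18 fell and 7 rose (19.2% and 19.3% of all genes), and scaled to total counts 30 fell and 5 rose (40.7% and 10.8% of all genes). Among those that fell were Phf11b (-1.28), Slfn5 (-1.23) and Slfn9 (-1.56), of which Slfn5 and Slfn9 belong to the Schlafen family. Eif2ak2, the RNA-activated kinase PKR that halts translation, fell by 1.12 and Nmi by 1.64. The Ifitm genes, whose membrane proteins block virus entry, moved the other way. Ifitm1 had 15454, 15395 and 14520 normalised reads with midkine and 1830, 2552 and 2442 in control (6.71-fold higher, log2 SE 0.094, limma adjusted p = 2.0e-17). Ifitm6 had 702, 779.9 and 641 with midkine and 107, 136 and 119 in control (5.84-fold higher), and Ifitm3 and Ifitm2 were 2.15-fold and 1.78-fold higher. Every midkine value of the 4 Ifitm genes was above every control value, as for 25.1% of all genes tested, and all 4 rose under every alternative processing tried.

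**Figure D5:**
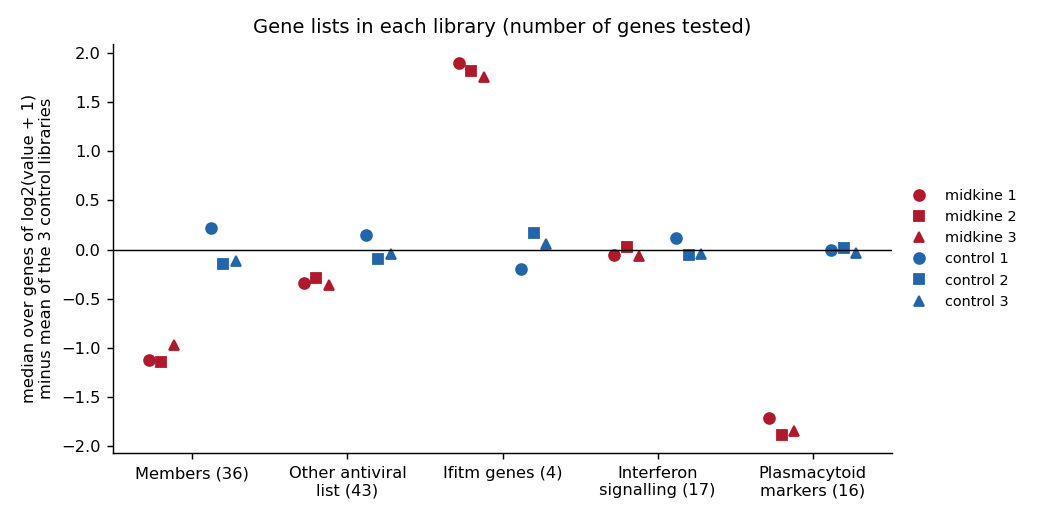
Median over the tested genes of each list of log2(value + 1) minus the mean of the 3 control libraries (vertical axis), 1 symbol per library, midkine left of control. The members lie at -1.15 to -0.97 in the midkine libraries, the 4 Ifitm genes at 1.76 to 1.90 and the plasmacytoid markers at -1.89 to -1.71.

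Markers of other cell types were measured beside the antiviral genes. For the counts that follow, 21.8% of all genes tested were called lower and 20.9% higher. Of 16 plasmacytoid markers (Bst2 left out) 14 fell and none rose; their summed level was 3195 to 3415 with midkine and 9386 to 9542 in control, and none was at 0. Siglech had 83.4, 103 and 120.1 normalised reads with midkine and 810.4, 855 and 783 in control. Of 9 markers of type 1 conventional dendritic cells 7 fell and 1 rose, with a summed level of 9803 to 12030 with midkine and 17257 to 19073 in control. Of 7 stromal markers 6 rose and 1 fell, at 36187 to 39082 with midkine and 13843 to 17137 in control. Of 10 macrophage markers 3 rose and 4 fell, and their sum was 15091 to 16599 with midkine and 5032 to 7417 in control. Gpnmb and Cd5l, at the highest level among them, carried this sum: the 8 others summed to 2428 to 2605 with midkine and 3442 to 4756 in control, and the median log2 fold change of the 10 was -0.22. Neutrophil markers summed to 38.5 to 69.9 with midkine and 533 to 659.6 in control, with Elane at 0 in all midkine libraries and in control replicate 1; 3 of 4 tested fell. Of 8 markers of type 2 dendritic cells 5 rose and 1 fell (sum 3773 to 4392 with midkine, 2892 to 3163 in control), and of 4 B lineage markers 2 fell, with Vpreb1 at 0 in all midkine libraries (sum 118 to 159 with midkine, 142 to 262 in control). With libraries scaled to total counts, 40.7% of all genes tested were called lower and 10.8% higher. Type 2 markers were then 3 higher and 1 lower, and macrophage markers 2 higher and 6 lower. Plasmacytoid markers were 15 lower, type 1 markers 8 lower and 1 higher, and stromal markers 1 lower and 6 higher. Of the neutrophil markers 4 were lower, and of the B lineage markers 3. The part of these markers, and of the mitochondrial ribosomal RNA share, in the changes of the antiviral genes was not tested.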

How the data were processed

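Per the labels' protocols, about 500 ng of total RNA (integrity number 8 on average, range 5 to 10) entered a QuantSeq FWD library for Illumina sequencing, which reads 3' ends. Builds GRCm38 and mm10 and the tools HTSeq, DESeq2, SAMtools 0.1.19, TopHat2 2.0.10, FastQC 0.11.0 and Bowtie 1.0.0 are listed, per the submitters' processing notes. Which annotation and strand setting were used is not given in the sources used here. What the authors deposited is a signal table: read counts per gene divided by 1 size factor for each library. Reads were recovered as multiples of the value of 1 read (0.916 to 1.13), which held for 100% of the values within 1e-06 reads, those of midkine replicate 3 included, whose value of 1.01 is close to 1. No 2 libraries of a group agreed within counting noise (chi-square per degree of freedom 2.42 to 11.7). Read numbers carry counting error only, and no molecular identifiers are named.

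Groups and replicate numbers came from the titles. Genes with a mean of at least 10 were tested with limma 3.58.1 in R 4.3.3 (variance trend, log2(value + 1), Benjamini-Hochberg over all 11844 genes, threshold 0.05), a scale that understates folds of low genes. The test was checked on simulated data with few changed genes, the same dispersion for all genes and no deviating library. That check does not cover a library such as control replicate 1. The members and all lists were chosen with earlier results of these data known. Members are all accounted for; other genes named are the up to 6 called genes of a pathway list with the smallest p, Irf7, Stat2, Irf9, Ifnar1 and Ifnar2, except 1 that is not reported here; Ifitm2, Eif2ak2, Nmi, Ube2l6, Uba7, Mavs and Parp10, Parp11 and Parp12 were added for their family or role after their values were seen, as were Cgas, Ifit3b, Oas1b, Oas1c and Oas1g. Ticam1 and Traf3 were likewise named after their values were seen. Up to 2 genes of each cell type list were named, and Itgax and Zbtb46 besides, after their values were seen. Positions are from GENCODE vM21 (GRCm38) and promoters from RefSeq (GRCm38.p6). There were 19 alternatives, among them edgeR 4.0.16 and DESeq2 1.42.0 on recovered reads. Figures used Python 3.11.15 and matplotlib 3.10.9.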

Additional observations from a re-analysis of the deposited data

How the results depend on the processing

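The fall of the members kept its direction under all 19 alternatives, with 22 to 33 members called lower against 31. A minimum mean of 50 gave 22 lower and 0 higher, since the 9 lost genes and Ifi44 were then not tested; edgeR gave 31 lower, of which all 31 were the same genes, and DESeq2 27 (Dhx58, Ddx58, Ifih1 and Oas3 were not called). Without a variance trend Ifih1 and Trim25 were lost. Leaving out 1 library in turn gave 26 to 31 members lower and 1 higher each time, 2136 to 2344 genes lower and 2139 to 2287 higher over all genes, and member medians of -1.13 to -0.93. Isg20, not called in any of these, ranged from -0.46 to 0.13, with the positive value without control replicate 1. Scaling to total counts gave 4817 genes lower and 1283 higher, 33 members lower, a member median of -1.29 against -0.26 over all genes, and Ifnar1 at -0.090; leaving ribosomal RNA out of the totals gave a median of -0.086. With the replicate number as a block 31 members were lower and 1 higher. Deviations of same-numbered libraries had correlations of -0.058 to 0.029, and those of differently numbered libraries -0.041 to 0.054. Whether same-numbered libraries share a mouse or culture is not stated and cannot be told from these values. The cause of the differences between settings was not tested. Members with few reads (8 midkine reads for Ifit1, 3 for Oas1a) limit what depth can show.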
